A study of Mus musculus with 3530 samples.

Results

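Ggcx, Acvr1, Zfyve27, Ints8, Haus6 and Pcna-ps2 are 6 of the 23354 genes counted cell by cell in the mouse medial prefrontal cortex. They were chosen by their small p-values when Fear-Recall cells were set against other conditions. Ranked by p, Pcna-ps2, Ggcx and Acvr1 were genes 1, 7 and 9 in pos cells of Fear-Recall against Context-Only. Haus6 and Pcna-ps2 were genes 8 and 15 in all cells of that comparison, and Ggcx and Ints8 were genes 3 and 6 in all cells of Fear-Recall against Homecage. Zfyve27 ranked lower, as gene 73 in pos cells of Fear-Recall against Context-Only. Because these comparisons made the choice, every value of Fear-Recall against another condition below is a description and carries no test.

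The 3530 cells were freed with papain and sorted into wells for Smart-seq2, which copies whole transcripts. All animals of all conditions carried TRAP2 and Ai14. TRAP2 places an inducible recombinase under control of the activity-regulated Fos gene, and Ai14 makes red fluorescent tdTomato once that recombinase has acted, which leaves a lasting mark in neurons that had expressed Fos. The 4 labelled conditions are Fear-Recall (1342 cells of 5 animals), Fear-Only (841 cells of 5 animals), Context-Only (912 cells of 5 animals) and Homecage (435 cells of 5 animals, of which 4 had 10 or more cells). The labels give no ages, sexes or schedule of training, labelling and recall. Titles of animals numbered 2, 3 and 4 name a sorting gate, pos for 1806 cells and neg for 779 cells, while 849 cells of animals numbered 1 and 5 have no gate label and 96 cells of Homecage animal 3 come from a plate marked with both gates. A further Context-Only animal numbered 5 is called 5b.

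The 6 genes belong to different machineries. Ggcx encodes the gamma-glutamyl carboxylase, which uses reduced vitamin K to modify secreted Gla proteins such as the receptor ligand Gas6. Acvr1 encodes a type I receptor for bone morphogenetic proteins (BMPs), which signals through SMAD transcription factors. Zfyve27 encodes protrudin, a protein of the endoplasmic reticulum that takes part in neurite outgrowth, and Haus6 encodes a subunit of augmin, the complex that lets microtubules branch from existing ones. Ints8 encodes a subunit of the Integrator complex, which binds RNA polymerase II and cleaves nascent RNA. Pcna-ps2 is annotated as a processed pseudogene of Pcna, the sliding clamp of DNA replication and repair.

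In the GENCODE annotation of GRCm38, Ggcx lies at chr6:72414308-72430712 on the plus strand, Acvr1 at chr2:58388644-58567157 on the minus strand and Zfyve27 at chr19:42163951-42194590 on the plus strand. Ints8 lies at chr4:11199158-11254258 and Haus6 at chr4:86578855-86612055, both on the minus strand. Pcna-ps2 covers chr19:9283380-9284160 on the plus strand, and Pcna lies at chr2:132249162-132253314 on the minus strand. These are positions of the genes of the same symbol, since the sources used here do not name the annotation behind the deposited counts.

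The sequences of Pcna-ps2 and Pcna bear on every value of the pseudogene. Its 781 bases aligned without a gap to the Pcna transcript and were identical at 775 of them (99.2%), with a longest identical run of 246 bases. The 6 substitutions, with the base of Pcna first and positions counted from the first base of the Pcna transcript, were A422G, A455C, G702A, A864G, G896T and G977A. The stretch that holds the first pair of them reads, 5′ to 3′, with the differing bases in capitals (90 bases, from base 366 of the Pcna transcript and base 87 of Pcna-ps2).
Pcna: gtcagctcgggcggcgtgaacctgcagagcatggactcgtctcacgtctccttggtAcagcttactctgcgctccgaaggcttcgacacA
Pcna-ps2: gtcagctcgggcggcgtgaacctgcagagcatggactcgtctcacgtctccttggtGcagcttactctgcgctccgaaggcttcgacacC
Reads that lie within the aligned stretch and touch none of these 6 bases cannot be told apart by sequence, so levels of Pcna-ps2 are uncertain throughout.

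Counts were summed per animal, and levels are given as CPM, the gene's reads scaled to a fixed total of all gene reads in that sum. Cells held 100002 to 6840943 reads (median 813078), and the 19 animal sums held 17 to 521 cells and 17831821 to 463123041 reads. CPM is not corrected for gene length, so levels are compared between samples and not between genes. In sums, a change in the share of cells of a type and a change in RNA per cell cannot be told apart. Replicates are animals, and the labels do not say whether they were raised or processed separately. Over all cells Ggcx was read in 37.2% of cells, Acvr1 in 27.5%, Zfyve27 in 67.1%, Ints8 in 36.9%, Haus6 in 11.2% and Pcna-ps2 in 58.8%. The reads were concentrated in few cells. The 36 cells richest in each gene (1% of all) held 32% of Ggcx reads, 35.3% of Acvr1 reads, 15.5% of Zfyve27 reads, 28.5% of Ints8 reads, 45.5% of Haus6 reads and 25.9% of Pcna-ps2 reads.

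Cells differed in quality and make-up between animals. In pos cells the median number of genes per cell was 6856 to 8009 in the 3 Fear-Recall animals, 6582.5 and 7267 in the 2 Fear-Only animals and 4490 to 7235 in the 3 Context-Only animals. Clusters of few genes per cell held 0% to 9.42% of Fear-Recall pos cells and 0.893% to 32.4% of Context-Only pos cells, the highest being animal 2 in both. The reporter was read in 76.6% to 96.9% of Fear-Recall pos cells and in 34.5% to 87.2% of Context-Only pos cells. Inhibitory neurons made up 27.4% to 34.1% of Fear-Recall pos cells and 30.4% to 42.5% of Context-Only pos cells. Of 10 microglial markers all were detected in pos cells of both conditions, with a summed level of 30.3 to 73 CPM in Fear-Recall and 19.6 to 43.2 CPM in Context-Only. The 10 oligodendrocyte markers, all detected, summed to 81.3 to 123.5 CPM in Fear-Recall and 173.5 to 238 CPM in Context-Only, and the 10 astrocyte markers to 298.1 to 450.3 CPM in Fear-Recall and 336 to 406 CPM in Context-Only. Of 10 endothelial and mural markers in the table, which summed to 8.54 to 13.3 CPM in Fear-Recall and 1.97 to 6.69 CPM in Context-Only, only Kdr was at 0 in all Fear-Recall pos sums. The part of these differences in the values below was not tested.

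Ggcx, the vitamin K-dependent carboxylase, had its highest mean in Fear-Recall and its lowest in Homecage animals. Over cells of all gates its level was 22.6, 15.7, 13.9, 16.3 and 15.2 CPM in Fear-Recall animals 1 to 5, and 27.3, 6.71, 11.5, 16.6 and 3.74 CPM in Fear-Only animals 1 to 5. It was 5.45, 7.81, 8.05, 9.46 and 13.6 CPM in Context-Only animals 2, 3, 4, 5 and 5b, and 2.99, 3.52, 4.44 and 4.33 CPM in Homecage animals 2 to 5. All 5 Fear-Recall animals lay above all Context-Only and all Homecage animals, while the Fear-Only animals spread across the range of the other conditions. The log2 fold change in a model of all 4 conditions (edgeR) was 0.79 (SE 0.38) for Fear-Recall against Context-Only, 0.32 (SE 0.38) against Fear-Only and 2.00 (SE 0.43) against Homecage.

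Ints8, the Integrator subunit, had the same order of condition means. It stood at 26.2, 18.9, 12.1, 15.3 and 13.2 CPM in Fear-Recall animals 1 to 5 and at 27.7, 9.39, 13.2, 19 and 9.48 CPM in Fear-Only animals 1 to 5. In Context-Only animals 2, 3, 4, 5 and 5b it stood at 8.06, 11.6, 15.6, 12.4 and 7.52 CPM, and in Homecage animals 2 to 5 at 6.17, 4.07, 3.16 and 7.58 CPM. All Fear-Recall and all Fear-Only animals lay above the highest Homecage animal, but Fear-Recall overlapped with Fear-Only and Context-Only. Of the 19698 genes tested, 0.761% had every Fear-Only animal above every Homecage animal. The log2 fold change of Fear-Recall was 1.55 (SE 0.37) against Homecage, 0.52 (SE 0.34) against Context-Only and 0.08 (SE 0.34) against Fear-Only. Fear-Only against Homecage gave 1.68 (SE 0.42) for Ggcx and 1.46 (SE 0.37) for Ints8, and neither passed (adjusted p = 0.723 for each by edgeR, Benjamini-Hochberg over 19698 genes). Context-Only against Homecage gave 1.21 (SE 0.41) and 1.03 (SE 0.36), with an adjusted p of 1 for each. Homecage sums enter all of these comparisons as well as the choice of the genes, so the values are not independent of each other.

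Haus6, the augmin subunit, was the scarcest of the 6 in cells and stood highest in Fear-Recall. Its level was 8.72, 2.51, 2.67, 6.46 and 3.89 CPM in Fear-Recall animals 1 to 5 and 3.65, 1.76, 2.39, 1.38 and 0.985 CPM in Fear-Only animals 1 to 5. It was 0.492, 1.8, 1.22, 1.61 and 1.37 CPM in Context-Only animals 2, 3, 4, 5 and 5b and 1.49, 0.861, 3.45 and 1.49 CPM in Homecage animals 2 to 5. Fear-Recall did not overlap with Context-Only, but 1 Fear-Only animal and 1 Homecage animal lay inside its range. The log2 fold change was 1.78 (SE 0.53) against Context-Only. It was 1.06 when every cell was given equal weight. That value is from limma on log2(CPM + 1), where the added 1 also lowers the fold change of a gene this scarce.

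Acvr1 and Zfyve27 of Fear-Recall overlapped with every other condition over cells of all gates. Acvr1, the BMP receptor, stood at 9.04, 19.9, 11.1, 20.7 and 12.7 CPM in Fear-Recall animals 1 to 5 and at 15.1, 7.68, 7.97, 13.6 and 11.5 CPM in Fear-Only animals 1 to 5. It stood at 4.38, 6.45, 9.17, 12.8 and 6.55 CPM in Context-Only animals 2, 3, 4, 5 and 5b and at 8.09, 4.95, 8.43 and 14.7 CPM in Homecage animals 2 to 5. All 4 conditions overlapped, and the log2 fold change of Fear-Recall against Context-Only was 0.79 (SE 0.35). Zfyve27 was the most abundant of the 6 in reads, with 65.1, 48.2, 57.3, 47.6 and 27.9 CPM in Fear-Recall animals 1 to 5 and 62, 39.4, 62.1, 48.1 and 28.4 CPM in Fear-Only animals 1 to 5. It had 21.8, 36.5, 38.2, 24.9 and 36.4 CPM in Context-Only animals 2, 3, 4, 5 and 5b and 26.8, 38.6, 51.2 and 25.6 CPM in Homecage animals 2 to 5. Fear-Recall and Fear-Only covered nearly the same range (log2 difference -0.01, SE 0.24), and animal 5 was the lowest of both.

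**Figure D1:**
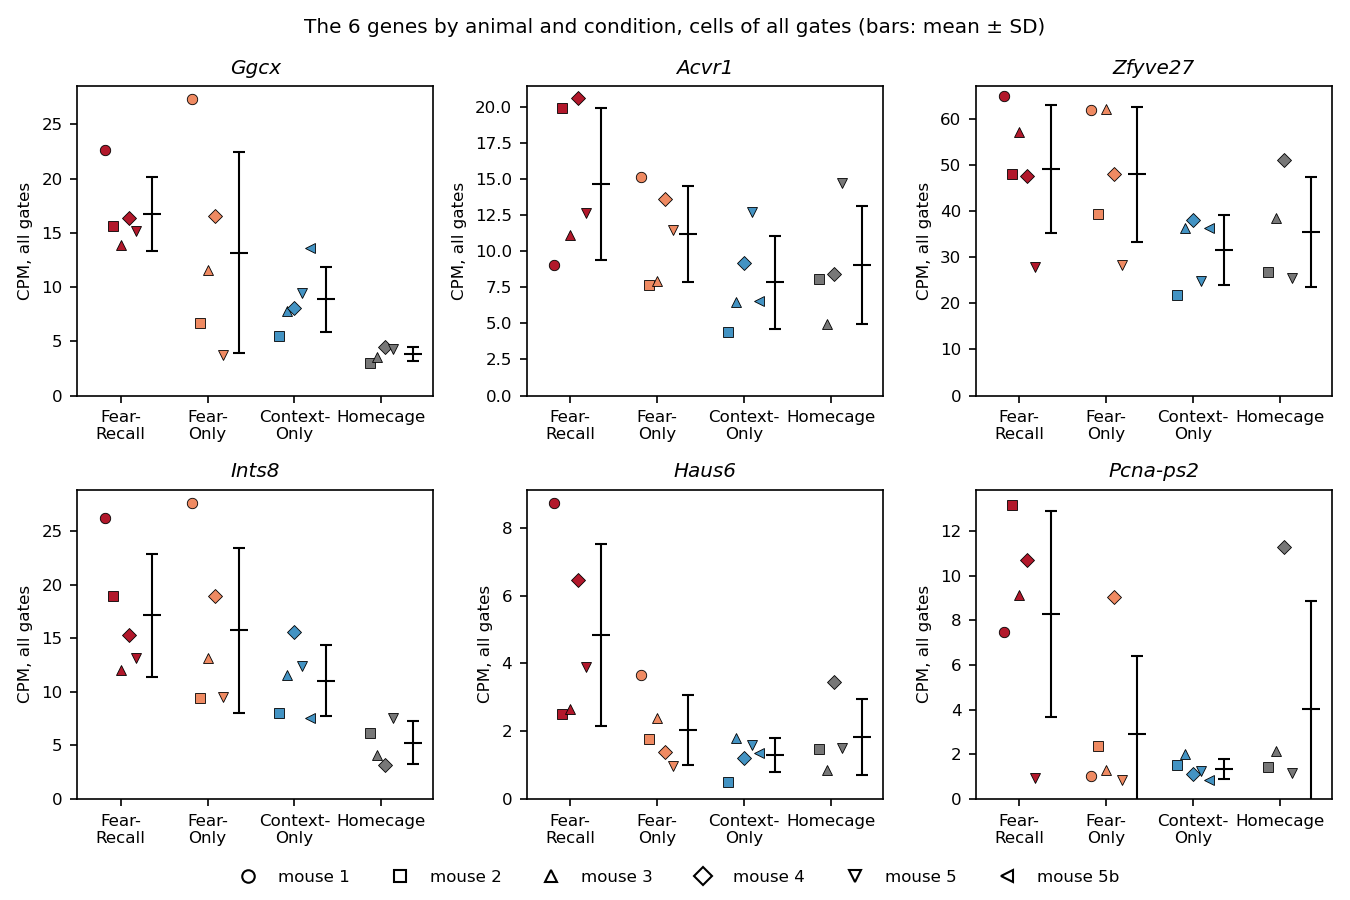
Levels of the 6 genes (y axis, CPM over cells of all gates) in each animal (points, shape by mouse number) of the 4 conditions, with mean ± SD beside them (lower bars stop at 0). Ggcx and Haus6 of Fear-Recall animals, at 13.9 CPM or more and 2.51 CPM or more, lie above all Context-Only animals.

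Across genes, 2 of the 6 (Ggcx and Haus6) had every Fear-Recall animal above every Context-Only animal, where 0.65% of the 19698 genes tested did, and 2 (Ggcx and Ints8) had every Fear-Recall animal above every Homecage animal, where 2.95% of genes did. None had every Fear-Recall animal above every Fear-Only animal (0.213% of genes did). Since these contrasts chose the genes, nothing is read from the counts. By edgeR no gene of the table passed an adjusted p of 0.05 in any of these contrasts (0% of genes). Unadjusted, 3.56% of genes had a p under 0.05 for Fear-Recall against Context-Only, 0.949% against Fear-Only and 8.86% against Homecage, and DESeq2 called 6, 2 and 87 genes.

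In pos cells, the log2 fold change of Fear-Recall against Context-Only was larger than over all gates for Acvr1, Ggcx, Zfyve27 and Pcna-ps2. The pos sums of these conditions come from animals 2, 3 and 4, while the sums over all gates also hold animals without a gate label. For Pcna-ps2 the value was 2.82 in pos cells, 2.47 over all gates and 2.25 in neg cells. Acvr1 stood at 22.1, 12.3 and 20.7 CPM in Fear-Recall animals 2, 3 and 4, at 6.58 and 8.74 CPM in Fear-Only animals 2 and 3, and at 4.13, 5.92 and 7.65 CPM in Context-Only animals 2, 3 and 4. Ggcx stood at 16.6, 15 and 16.3 CPM in those Fear-Recall animals, at 6.58 and 8.68 CPM in Fear-Only and at 4.25, 6.57 and 6.23 CPM in Context-Only. For both genes no animal of Fear-Only or Context-Only reached the lowest Fear-Recall animal. The log2 fold change against Context-Only was 1.51 (SE 0.34) for Acvr1 and 1.36 (SE 0.29) for Ggcx, and against Fear-Only 1.19 (SE 0.39) and 0.998 (SE 0.33). The single pos animal of Homecage, animal 2, had 10.2 CPM of Acvr1 and 2.6 CPM of Ggcx.

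Zfyve27 and Haus6 showed smaller or less even contrasts in pos cells. Zfyve27 had 47.4, 55.7 and 47.6 CPM in Fear-Recall animals 2, 3 and 4, 35.7 and 46.4 CPM in Fear-Only animals 2 and 3, and 21.1, 32.4 and 28.3 CPM in Context-Only animals 2, 3 and 4. Haus6 had 2.91, 2.7 and 6.46 CPM in Fear-Recall, 2.02 and 1.94 CPM in Fear-Only and 0.505, 1.81 and 1.44 CPM in Context-Only. Both lay above the other conditions in every Fear-Recall animal, with log2 fold changes against Context-Only of 0.75 (SE 0.24) for Zfyve27 and 1.58 (SE 0.61) for Haus6. Without Fear-Recall animal 4, the highest for Haus6, its value was 1.10. Ints8 had 20.7, 12 and 15.3 CPM in Fear-Recall, 7.02 and 11.1 CPM in Fear-Only and 8.41, 11.3 and 16.9 CPM in Context-Only. It overlapped with Context-Only (log2 fold change 0.27, SE 0.34), and without Fear-Recall animal 2 that value was 0.02. In all, 5 of the 6 genes were above Context-Only without overlap, where 5.77% of 20381 genes were, and all 6 above Fear-Only, where 13.3% were. These contrasts too made the choice. No gene passed by edgeR in either (0%), while 688 and 384 genes had an unadjusted p under 0.05 and DESeq2 called 24 and 7.

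In the pos gate, the fold changes of Fear-Recall against Context-Only were larger in inhibitory than in excitatory neurons for each of the 6 genes except Ints8. Acvr1 and Ggcx are given in detail. Acvr1 reached 42.8, 15.7 and 44.4 CPM in pos inhibitory neurons of Fear-Recall animals 2, 3 and 4, against 10.9 and 10.3 CPM in Fear-Only animals 2 and 3 and 4.07, 4.62 and 8.5 CPM in Context-Only animals 2, 3 and 4. Ggcx reached 27.9, 26.7 and 22.3 CPM in those Fear-Recall neurons, against 7.51 and 9.31 CPM in Fear-Only and 3.7, 6.84 and 4.78 CPM in Context-Only. A single cell of Fear-Recall animal 2, in an unnamed cluster with few genes per cell, held 60.8% of that animal's Ggcx reads in pos inhibitory neurons. With the gene's reads in its richest cell taken out of every animal, Ggcx was at 10.9, 23.4 and 11.9 CPM in Fear-Recall, against 5.18 and 7.25 CPM in Fear-Only and 1.56, 4.8 and 2.59 CPM in Context-Only. Treated the same way, Acvr1 was at 28.6, 13.4 and 33 CPM in Fear-Recall, against 5.84 and 8.47 CPM in Fear-Only and 0.252, 2.77 and 5.64 CPM in Context-Only. Fear-Recall lay above both other conditions for both genes with and without those cells. In pos excitatory neurons Acvr1 was at 10, 10.5 and 13.5 CPM in Fear-Recall, against 3.8 and 7.62 CPM in Fear-Only and 4.17, 6.78 and 7.28 CPM in Context-Only. Ggcx was at 10.1, 8.95 and 14.5 CPM in Fear-Recall excitatory neurons, against 5.98 and 8.22 CPM in Fear-Only and 4.56, 6.39 and 6.86 CPM in Context-Only. The log2 fold change of Fear-Recall against Context-Only was 2.51 (SE 0.54) for Acvr1 and 2.24 (SE 0.48) for Ggcx in inhibitory neurons, and 0.76 (SE 0.38) and 0.76 (SE 0.34) in excitatory neurons. Whether the classes differ in this contrast was not tested, since these cells made the choice. Zfyve27 gave 1.07 (SE 0.51) in inhibitory and 0.64 (SE 0.24) in excitatory neurons, and Ints8 gave 0.16 (SE 0.53) and 0.38 (SE 0.36). Haus6 gave 3.305 (SE 1.57) and 1.01 (SE 0.60), with overlap between the conditions in both classes. Pcna-ps2 gave 3.11 (SE 0.78) and 2.69 (SE 0.48). In all, 3 of the 6 genes did not overlap between Fear-Recall and Context-Only in pos inhibitory neurons (4.74% of genes) and 4 in pos excitatory neurons (6.75% of genes).

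**Figure D2:**
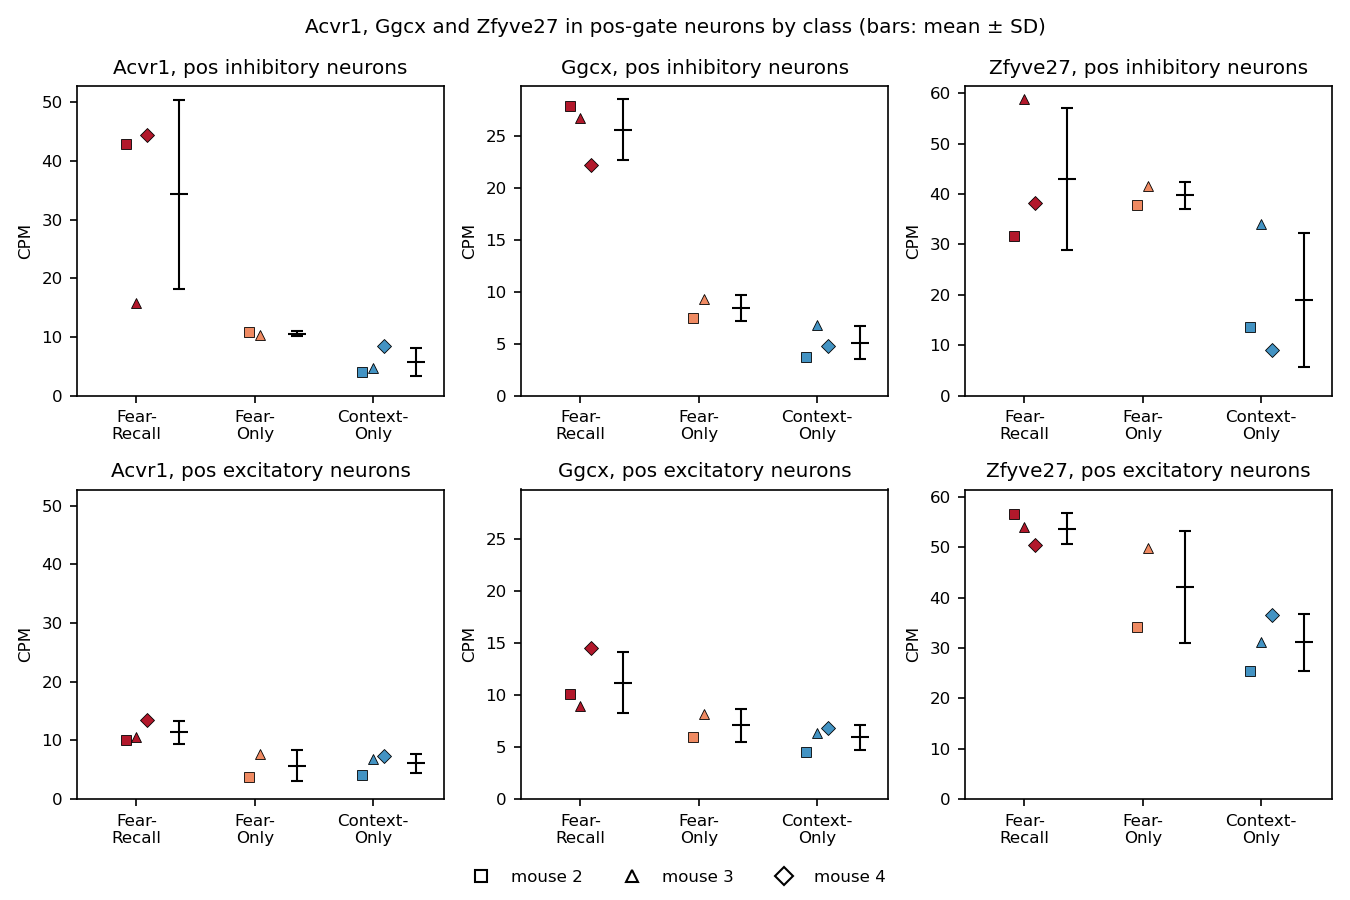
Acvr1, Ggcx and Zfyve27 (y axis, CPM) in pos inhibitory neurons (upper row) and pos excitatory neurons (lower row) of each animal of 3 conditions, with mean ± SD. The 3 Fear-Recall animals of the inhibitory panels stand at 15.7 CPM or more for Acvr1 and at 22.3 CPM or more for Ggcx; the only Homecage animal with pos cells is left out.

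With the cells of all animals pooled, cells with very high levels were more frequent among pos inhibitory neurons of Fear-Recall. Pooled cells are not replicates and Fear-Recall pos cells made the choice, so these shares are a description. More than 100 CPM of Acvr1 was found in 26 of 255 pos inhibitory cells of Fear-Recall (10.2%), in 9 of 191 of Fear-Only (4.71%) and in 2 of those of Context-Only (1.09%). More than 100 CPM of Ggcx was found in 21 (8.24%), 6 (3.14%) and 3 (1.64%) of these cells. The cells were mostly different ones, as only 4 of the Fear-Recall cells passed 100 CPM for both genes. Cells with at least 1 read of Ggcx made up 38.4% of pos inhibitory cells in Fear-Recall, 42.9% in Fear-Only and 26.8% in Context-Only, and those with a read of Acvr1 31.4%, 23.6% and 18%. Without the richest cell of each gene in every animal, the log2 fold change of Fear-Recall against Context-Only over all pos cells was 1.54 for Acvr1 and 1.45 for Ggcx.

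Acvr1 and Ggcx were followed by subclass in Vip-like interneurons, a class of cortical inhibitory cells that mainly contact other interneurons. Over all gates Acvr1 there had a median of 50.3 CPM over the 5 Fear-Recall animals (range 7.19 to 72.7), of 11.2 CPM over 3 Fear-Only animals (8.98 to 14.5), of 8.38 CPM over 5 Context-Only animals (5.32 to 14.3) and of 5.43 CPM over 3 Homecage animals (2.06 to 9.91). Ggcx had medians of 23.6 CPM (15.4 to 37.7), 8.79 CPM (6.27 to 9.72), 6.35 CPM (1.91 to 10.3) and 4.81 CPM (1.2 to 17.9) in the same order of conditions. For Ggcx the lowest Fear-Recall animal (15.4 CPM) lay above all Fear-Only and Context-Only animals but below the highest Homecage animal (17.9 CPM). The share of all genes without such overlap in Vip-like cells was not computed, so nothing is read from this. For Acvr1 the lowest Fear-Recall animal (7.19 CPM) lay below all 3 Fear-Only animals and inside the ranges of Context-Only and Homecage. In pos Vip-like cells of Fear-Recall animals 2, 3 and 4, Acvr1 was at 57.6, 24.5 and 72.7 CPM, with 10 of 65, 7 of 64 and 5 of 17 cells above 100 CPM. High values were not limited to these cells: in 13 pos cells of Fear-Recall animal 2 in an unnamed inhibitory cluster with few genes per cell, Acvr1 was at 63.5 CPM, with reads in 2 cells, of which 1 lay above 100 CPM. In Sst-like interneurons Acvr1 was low in each animal with 10 or more such cells, at 3.07 CPM or less, with medians of 0.56 CPM in Fear-Recall, 1.91 CPM in Fear-Only, and no read among the 32 Sst-like cells of Context-Only. In layer 6 corticothalamic-like (CT-like) neurons the medians of Acvr1 were 4.81 CPM in Fear-Recall, 8 CPM in Fear-Only, 5.05 CPM in Context-Only and 2.77 CPM in Homecage, with overlapping ranges. Sst-like cells gave a mixed picture for Ggcx. Over all gates Ggcx was there at 37.8, 9.18 and 9.66 CPM in Fear-Recall animals 1, 2 and 3. It was at 7.01 CPM or less in Fear-Only, 8.55 CPM in Context-Only animal 3 and 1.68 CPM in Homecage animal 3. In pos Sst-like cells Ggcx was at 0.556 and 7.77 CPM in Fear-Recall animals 2 and 3. Against this stood 4.49 and 9.12 CPM in pos Sst-like cells of Fear-Only animals 2 and 3 and 7.93 CPM in those of Context-Only animal 3. In layer 6 CT-like neurons Ggcx overlapped, at 6.97 to 24.6 CPM in Fear-Recall and 4.44 to 30.05 CPM in Fear-Only.

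Across all conditions, Acvr1 was lowest in Sst-like (2.68 CPM) and near-projecting-like neurons (3.58 CPM) and highest among named subclasses in upper-layer intratelencephalic-like (IT-like) neurons (24.6 CPM), Vip-like (19.4 CPM) and Pvalb-like interneurons (16.7 CPM). Zfyve27 ran from 33.7 CPM in Sncg-like to 65.2 CPM in Pvalb-like interneurons, Ggcx from 8.54 CPM in layer 6 CT-like to 17.3 CPM in layer 5 pyramidal tract-like neurons, and Ints8 from 6.5 CPM in Lamp5 Ndnf-like to 15.7 CPM in Vip-like interneurons. Haus6 was at 0.0593 CPM in the 51 Pvalb-like cells and between 0.971 and 2.83 CPM in the other named subclasses. An unnamed inhibitory cluster of 65 cells with few genes per cell (median 3029) had the highest Acvr1 (31.8 CPM) and Ggcx (25.4 CPM) and the lowest Zfyve27 (7.31 CPM). These are pooled levels of clusters that hold different shares of each condition, and they were not tested.

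**Figure D3:**
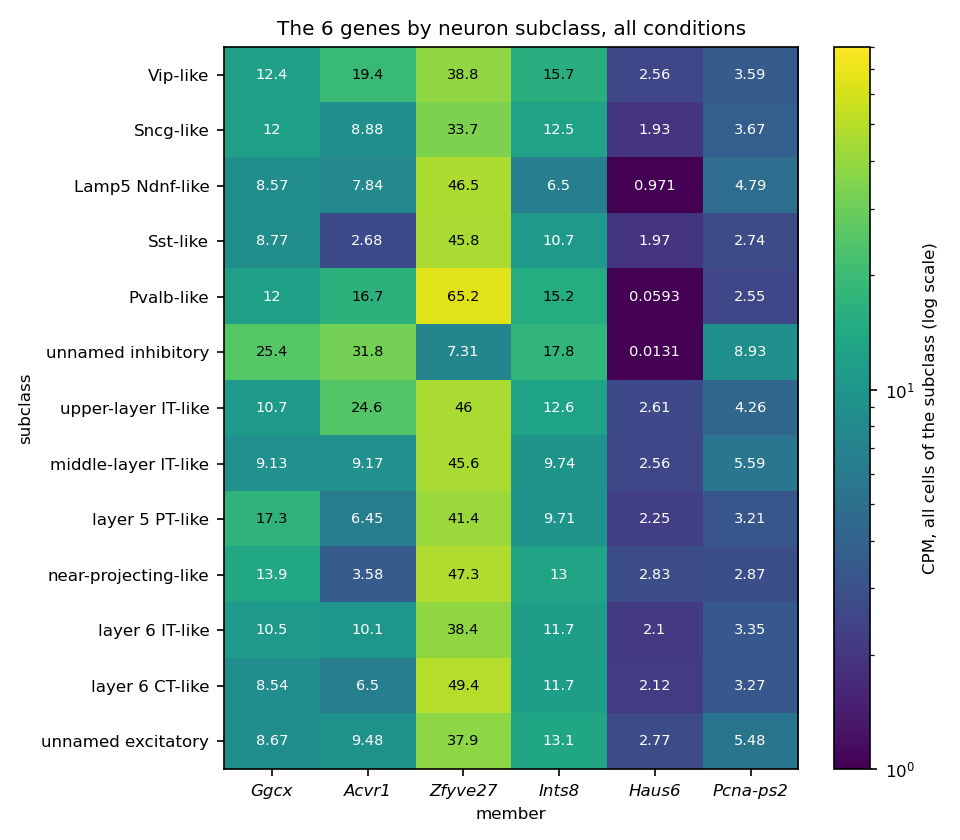
Pooled level (colour and number, CPM, log colour scale that stops at 1 CPM) of each gene (columns) in the cells of each neuron subclass (rows), over all conditions. Acvr1 spans 2.68 CPM in Sst-like to 31.8 CPM in the unnamed inhibitory cluster, while the named subclasses span 8.54 to 17.3 CPM for Ggcx and 6.5 to 15.7 CPM for Ints8.

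Pcna-ps2 separated animals into those with much and those with little of it. Over all gates it stood at 7.46, 13.2, 9.14, 10.7 and 0.924 CPM in Fear-Recall animals 1 to 5 and at 1.01, 2.39, 1.29, 9.03 and 0.848 CPM in Fear-Only animals 1 to 5. It stood at 1.51, 2.02, 1.1, 1.25 and 0.848 CPM in Context-Only animals 2, 3, 4, 5 and 5b and at 1.44, 2.15, 11.3 and 1.16 CPM in Homecage animals 2 to 5. Fear-Recall animals 1 to 4, Fear-Only animal 4 and Homecage animal 4 were high, and the other 13 animals, Fear-Recall animal 5 included, were at 2.39 CPM or less. In pos cells its log2 fold change was 2.82 (SE 0.45) for Fear-Recall against Context-Only and 2.66 (SE 0.52) against Fear-Only. Over all gates against Homecage it was 0.99 (SE 0.79), and 2.21 without Homecage animal 4.

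Pcna itself did not follow the level of its pseudogene. Over all gates Pcna averaged 96.3 ± 18.1 CPM in Fear-Recall, 113.4 ± 30.5 CPM in Fear-Only, 118.7 ± 9.3 CPM in Context-Only (SD, n = 5 each) and 124.4 ± 27.3 CPM in Homecage (SD, n = 4). Reads of Pcna-ps2 made up 9.62%, 10.3%, 8.5% and 10.9% of the reads of both genes in Fear-Recall animals 1 to 4, 8.25% in Fear-Only animal 4 and 9.22% in Homecage animal 4. In the other animals the share was between 0.689% (Context-Only 5b) and 1.5% (Homecage 2), and 0.827% in Fear-Recall animal 5. By gate and class, the share was 10.8% in pos and 8.67% in neg cells of Fear-Recall animal 2, 8.75% and 7.84% in those of Fear-Recall animal 3, and 10.3% in both inhibitory and excitatory neurons of Fear-Recall animal 2. Of the 2074 cells with a read of Pcna-ps2, 2073 (99.95%) also had a read of Pcna, which was read in 81.5% of all cells. How much of the Pcna-ps2 count stems from Pcna transcripts was not tested.

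**Figure D4:**
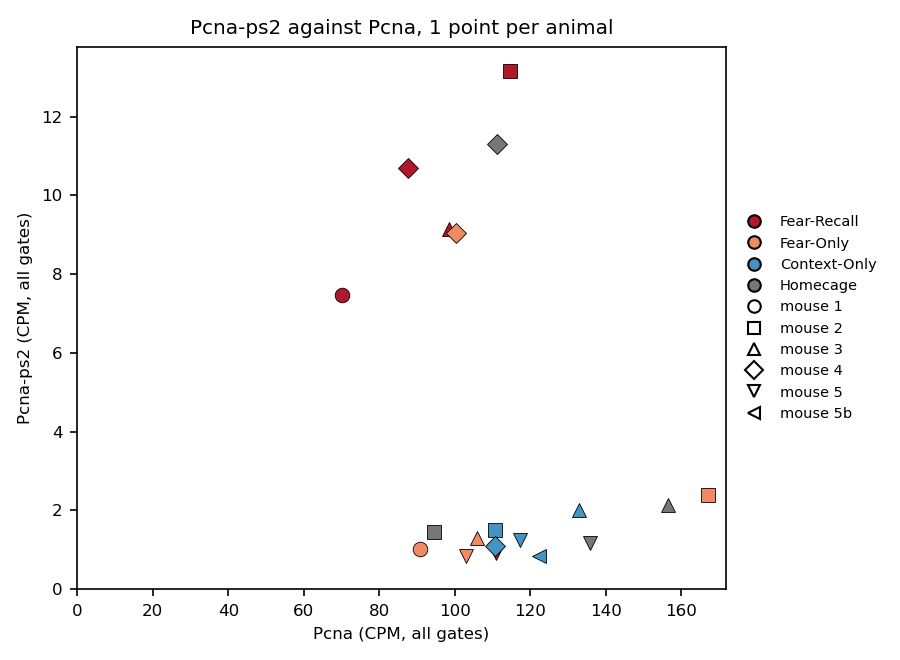
Level of Pcna-ps2 (y axis, CPM) against Pcna (x axis, CPM) in each animal (colour by condition, shape by mouse number), cells of all gates. The 6 animals at 7.46 CPM of Pcna-ps2 or more have 70.1 to 114 CPM of Pcna, inside the range of the other animals or below it.

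From the titles, 26 plates were used here, each with cells of 1 animal only, so a plate cannot be told apart from its animal or condition. Cells of animals numbered 1 and of Homecage animal 4 were not given to a named plate. The 4 pos and neg plates of Fear-Recall animal 2 differed in Acvr1, with 31.3 and 13 CPM on its pos plates and 10 and 19.8 CPM on its neg plates. For Ggcx those plates had 17.9 and 15.4 CPM in pos and 9.09 and 17.9 CPM in neg cells. The Pcna-ps2 share of reads was 7.96% to 12.1% on these 4 plates. It was 7.86% and 7.84% on the neg plates of Fear-Recall animal 3.

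Neg cells and animals without a gate label gave less even pictures. In neg cells Ggcx was at 13.2 and 10.8 CPM in Fear-Recall animals 2 and 3 and at 8.7, 14.4 and 11.7 CPM in Context-Only animals 2, 3 and 4, and Acvr1 at 14.5 and 7.98 CPM in Fear-Recall and 5.03, 9.23 and 12.3 CPM in Context-Only. Both overlapped, with log2 fold changes of -0.02 (SE 0.49) for Ggcx and 0.30 (SE 0.56) for Acvr1. In neg cells 1 of the 6 genes, Pcna-ps2, was above Context-Only without overlap (12.1% of genes were). Among animals without a gate label Acvr1 was at 9.04 and 12.7 CPM in Fear-Recall animals 1 and 5 and at 12.8 and 6.55 CPM in Context-Only animals 5 and 5b (log2 fold change 0.07, SE 0.53). Ggcx, at 22.6 and 15.2 CPM in those Fear-Recall animals and 9.46 and 13.6 CPM in those Context-Only animals, did not overlap, nor did Haus6, at 8.72 and 3.89 CPM against 1.61 and 1.37 CPM, or Ints8, at 26.2 and 13.2 CPM against 12.4 and 7.52 CPM. With 2 animals against 2, 21.1% of all genes were above Context-Only without overlap. The log2 difference of pos minus neg in Fear-Recall less that in the other conditions was 1.07 for Ggcx (SE 0.48), 0.73 for Acvr1 (SE 0.57) and 0.57 for Zfyve27 (SE 0.33), given as a description since Fear-Recall values made the choice.

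The comparison of pos with neg cells of the same 8 animals did not itself choose the genes and was tested with edgeR, the animal as a block. Its sums hold the cells of Fear-Recall animals 2 and 3, which entered the choice, so its values are not independent of the choice. In 7 of the 8 animals the gates lay on separate plates, so gate and plate cannot be told apart there. None of the 6 genes passed, where 0.287% of 17752 genes did (51, with 0.259% of genes higher and 0.0282% lower in pos). Zfyve27 had a median of 34 CPM (15.9 to 55.7) in pos and 54 CPM (23.6 to 75.3) in neg cells and was lower in pos cells in 8 of 8 animals, at -0.48 on the log2 scale (SE 0.15, adjusted p = 0.309 by edgeR). Ggcx gave -0.34 (95% interval -0.81 to 0.13, adjusted p = 0.64), with lower values in pos cells in 6 of 8 animals, the exceptions being the Fear-Recall animals. Acvr1 (0.13, interval -0.37 to 0.63), Ints8 (0.08, -0.32 to 0.48), Haus6 (0.15, -0.67 to 0.96) and Pcna-ps2 (-0.02, -0.56 to 0.53) had intervals on both sides of 0. Inhibitory neurons made up 27.4% to 42.5% of pos cells and 12.9% to 29.4% of neg cells over all animals with a gate, and their part in these values was not tested. The share of cells with a read of each gene was also lower in pos than in neg cells on average, by 3.65 points for Ggcx to 10.8 points for Zfyve27, but after adjustment over the 6 genes no share passed the exact sign-flip test (lowest adjusted p = 0.0656).

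**Figure D5:**
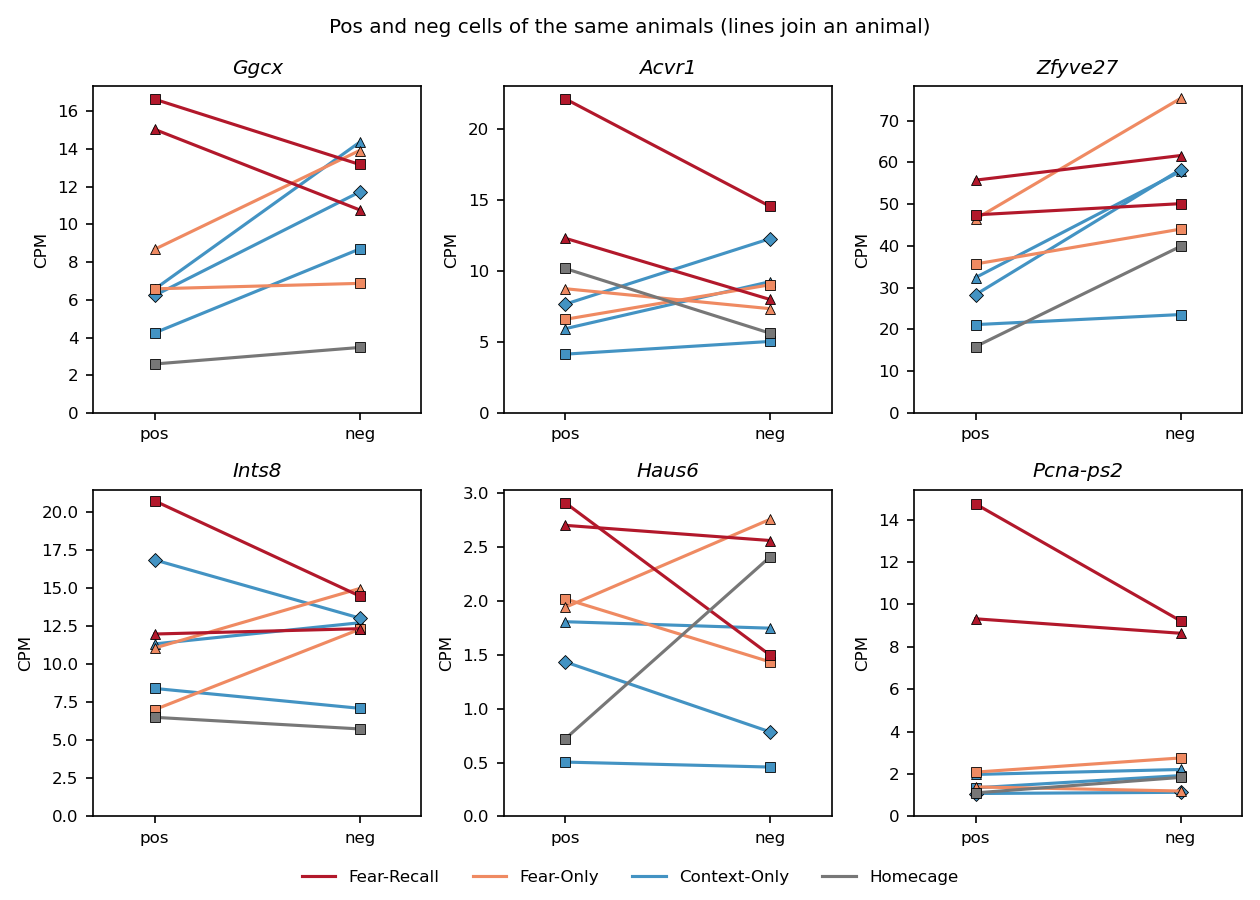
Level of each gene (y axis, CPM) in pos and neg cells (x axis) of 8 animals, joined by a line coloured by condition. Zfyve27 is lower in pos cells in all 8 animals, and Ggcx is higher in pos cells only in the 2 Fear-Recall animals.

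Inhibitory and excitatory neurons of 17 animals were compared in the same way. Classes come from clusters of these cells, but of the 6 genes only Ints8 was among the 2000 variable genes that made the clusters. The sums also hold the Fear-Recall cells that entered the choice of the genes, so the values are not independent of that choice. None of the 6 passed, where 41% of 16100 genes did (18.4% higher and 22.7% lower in inhibitory neurons). Acvr1 gave 0.56 on the log2 scale (SE 0.28, adjusted p = 0.12 by edgeR) and was higher in inhibitory neurons in 12 of 17 animals. It passed when each cell had equal weight (0.62, adjusted p = 0.0346 by limma) and without the block (0.82, adjusted p = 0.0325 by edgeR), while it was 0.34 without the Fear-Recall animals (adjusted p = 0.403 by edgeR) and 0.34 without the clusters of few genes (adjusted p = 0.375). Ints8 gave 0.39 (SE 0.21, adjusted p = 0.147) and was higher in 13 of 17 animals. Ggcx gave 0.11 (95% interval -0.44 to 0.65), Zfyve27 -0.16 (-0.42 to 0.10), Haus6 -0.67 (-1.92 to 0.58) and Pcna-ps2 -0.07 (-0.48 to 0.33).

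The mean share of cells with a read was lower in inhibitory than in excitatory neurons for each gene. Inhibitory neurons also had fewer genes per cell (median 5595.5, against 7226 in excitatory neurons) at like numbers of reads (medians 817634 and 811211), and the part of this in the shares was not tested. With every cell thinned to 100000 reads, Zfyve27 was read in 46.2% ± 16.1 of inhibitory and 58.9% ± 18.3 of excitatory neurons (SD, n = 17), lower in inhibitory neurons in 15 of 17 animals (two-sided permutation test by sign flips of animals, adjusted p = 0.0009 over the 6 genes). Without thinning the shares were 54.5% ± 14.9 and 69.3% ± 15.8. Pcna-ps2 was read in 18.2% of inhibitory and 21.5% of excitatory neurons after thinning (11 of 17 animals lower, adjusted permutation p = 0.0177). Ints8 was read in 21.2% and 26.2% (adjusted permutation p = 0.0177), against its higher CPM in inhibitory neurons, so no order is read from it. The shares of Ggcx, Acvr1 and Haus6 were lower in inhibitory neurons by 7.44, 4.53 and 3.97 points as deposited and by 3.60, 1.64 and 1.68 points at equal depth, where none of the 3 passed (adjusted permutation p = 0.0808, 0.264 and 0.101).

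Relatives of the 6 genes, taken from lists drawn up with earlier results of these data known, did not pass in pos cells of Fear-Recall against Context-Only, where no gene did. Of 42 receptors, ligands and SMADs of the BMP and activin pathway, 30 had a positive log2 fold change, with a median of 0.48 against 0.02 over all genes. Of 19 Integrator genes, 16 were positive (median 0.15). Of 19 genes of the vitamin K cycle and Gla proteins 10 were positive (median 0.08), of 29 protrudin partners and proteins that shape the endoplasmic reticulum 18 (median 0.10), of 21 augmin and gamma-tubulin genes 10 (median -0.03) and of 30 genes of PCNA-dependent replication 13 (median -0.03). Of 30 immediate early genes, which neurons switch on after activity, 22 were positive (median 0.26).

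Between pos and neg cells no member of the 6 lists around these genes passed. Of the 30 immediate early genes 2 were higher in pos cells by edgeR. Scg2, a secretogranin of dense-core vesicles, was higher by 0.995 on the log2 scale (SE 0.14, adjusted p = 0.0173 by edgeR), and Fosl2, a FOS-family transcription factor, by 1.38 (SE 0.22, adjusted p = 0.032). The reporter, read in 23.5% to 96.9% of pos cells and 0% to 12.8% of neg cells per animal, is itself driven through Fos, and the 51 genes called at 0.287% of all are the background for this count.

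Between inhibitory and excitatory neurons many relatives passed, on a background of 41%. Of 40 BMP and activin genes 6 were higher and 19 lower in inhibitory neurons (median -0.81 against -0.11 over all genes). The type II BMP receptor Bmpr2 was lower, at -0.50 (SE 0.16, adjusted p = 0.0195 by edgeR), as was the activin receptor Acvr2a, at -0.82 (SE 0.27, adjusted p = 0.0196), and the BMP co-receptor Rgmb was higher, at 2.16 (SE 0.17, adjusted p = 2.19e-09). Of 20 augmin and gamma-tubulin genes 6 were higher and 1 lower, with the augmin subunits Haus8 (1.76, SE 0.30) and Haus4 (3.65, SE 0.80) among the higher ones. Of 19 Integrator genes 2 were higher and 1 lower, and the lower one was Ints7 at -2.18 (SE 0.26). Of 29 protrudin partners 4 were higher and 10 lower, including the reticulon Rtn4 (-1.32, SE 0.09) and the atlastin Atl1 (-0.84, SE 0.09), both of which shape endoplasmic reticulum tubules. Of 14 vitamin K genes 3 were higher and 4 lower, with the Gla protein Gas6 at 1.003 (SE 0.14) and its receptor Tyro3 at -3.45 (SE 0.31). Of 27 genes of PCNA-dependent replication 4 were higher and 6 lower, and of 29 immediate early genes 7 were higher and 15 lower. Some listed genes were among the variable genes that made the clusters, and no gene named here was. Without the variable genes 5 were higher and 15 lower of 33 BMP and activin genes, 6 and 1 of 20 augmin and gamma-tubulin genes, 2 and 1 of 18 Integrator genes, 4 and 10 of 28 protrudin partners, 2 and 3 of 10 vitamin K genes, 3 and 5 of 22 genes of PCNA-dependent replication and 2 and 9 of 13 immediate early genes.

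Over the 19 animals the levels of Ggcx and Ints8 ran most alike among the 6 (Pearson r = 0.839 on log2(CPM + 1) as a description), and those of Ints8 and Pcna-ps2 least (r = 0.149). With condition means taken out, Ggcx and Ints8 still had r = 0.612. All sums share their library within an animal, and animals differ in the share of gates and in depth. Among genes with a mean of 10 CPM or more, the closest to Ggcx were Rnf26 (r = 0.886), Hsdl1 (0.849) and Svop (0.848), and the closest to Acvr1 were Ppp4r3b (0.888), Otud1 (0.818) and Lmbr1 (0.807). Those closest to Zfyve27 were St6galnac6 (0.892), Jph3 (0.869) and Kctd17 (0.862), and those closest to Ints8 were Far1 (0.925), Deaf1 (0.912) and Dnaja3 (0.883). For Haus6 they were Pianp (0.863), Syn1 (0.828) and Plbd2 (0.821), and for Pcna-ps2 Camkk2 (0.783), Pcsk2 (0.76) and Epha7 (0.755), the lowest values of the 6.

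RefSeq promoters (GRCm38.p6, 300 bases around the start) were at hand for Acvr1, Haus6, Ggcx and Zfyve27, and were searched on both strands for motifs bound by activity-regulated factors. The cAMP response element TGACGTCA was found in the promoter of Zfyve27 alone, and in 1.79% of 32851 promoters. The AP-1 motif TGANTCA (7.81% of promoters) and the EGR motif GCGNGGGCG (5.55%) were found in none of the 4. The region before the start of Zfyve27 is shown because it holds this match, in capitals, which begins 6 bases before the start and ends 2 bases past it (chr19:42170417-42170568, plus strand).
Zfyve27: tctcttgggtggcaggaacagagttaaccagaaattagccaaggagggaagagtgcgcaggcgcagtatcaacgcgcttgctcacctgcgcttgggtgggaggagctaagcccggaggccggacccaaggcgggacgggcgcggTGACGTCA
This start lies inside the annotated gene, and a match of letters does not show binding.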

How the data were processed

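Single cells of the medial prefrontal cortex were prepared by Smart-seq2, per the labels' protocols. The authors deposited a table of raw read counts per gene and cell. Bowtie 0.12.2 and the builds mm8 and mm10 are named in the submitters' processing notes, without their roles. How reads were given to genes is not stated in the sources used here. The deposited counts were used as they stand (23354 genes, 3530 cells, the reporter row left out). Cells hold 100002 to 6840943 reads, and counts without molecular identifiers are not independent molecules.

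Sums were formed for each animal with 10 or more cells, also by gate and by class. The filter on low genes was edgeR's, at 10 counts and a total of 15. Sums were tested with edgeR 4.0.16 (quasi-likelihood, TMM scaling) under R 4.3.3, with Benjamini-Hochberg adjustment over all genes tested and a threshold of 0.05, with the animal as a block for gates and classes. DESeq2 1.42.0 and limma 3.58.1 served as alternatives. Shares of cells were tested by exact sign flips of animals for gates and 100000 random sign flips for classes. The fit was tested on simulated data. P-values measure the spread between animals only.

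Cells were clustered with scanpy 1.11.5 and leidenalg 0.10.2 (2000 variable genes, 30 components, 15 neighbours, resolution 1.0) and named from marker lists. No doublet caller was run. Positions are from GENCODE vM21 (GRCm38), promoters from RefSeq GRCm38.p6. The 6 genes and all lists were chosen with earlier results of these data known. The text names the 6 genes throughout, list genes past the threshold, and for each of the 6 the 3 genes of highest correlation over animals among those with a mean of 10 CPM or more (predicted genes left out).

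Mouse numbers are shared between conditions in the titles. Deviations from the condition means correlated above 0.1 in 28 of 28 same-numbered pairs (0.118 to 0.504, median 0.269) and in 18 of 107 other pairs (median -0.1). The numbers were therefore taken to pair the animals in an alternative fit, with the mouse number as a block. Fold changes and SEs between conditions in the Results come from fits without that block.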

Additional observations from a re-analysis of the deposited data

Results flagged for a closer look

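In 66 groups of 4 to 10 animals the highest and lowest values of the 6 genes were compared with their neighbours by Dixon's ratio. In 8 of these groups an animal stood apart at the 95% level. Chance gives about 1 in 20 groups if they are independent, but these groups share animals and cells. Ggcx over all gates was 22.62 CPM in Fear-Recall animal 1, where the next animal had 16.32 CPM. Pcna-ps2 over all gates was 9.031 CPM in Fear-Only animal 4 (next 2.39 CPM) and 11.29 CPM in Homecage animal 4 (next 2.146 CPM).

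In excitatory neurons Pcna-ps2 was 7.843 CPM in Fear-Only animal 4 (next 2.573 CPM) and 15.45 CPM in Homecage animal 4 (next 2.338 CPM). Of the cells of Fear-Only animal 4, 39 were neg and 1 was pos, and the 17 cells of Homecage animal 4 were neg. Ggcx was 31.86 CPM in excitatory neurons of Fear-Only animal 1, which had 36 cells (next 11.54 CPM). Acvr1 was 17.8 CPM in excitatory neurons of Context-Only animal 5 (next 7.825 CPM). Zfyve27 was low, at 21.17 CPM, in excitatory neurons of Fear-Recall animal 5 (next 50.41 CPM).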

How the results depend on the processing

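The log2 fold changes of the 6 genes for Fear-Recall against Context-Only, in pos cells and over all gates, turned sign under 0 of the alternatives run, and 7 values moved by more than the replicate spread. With the mouse number as a replicate block, edgeR called 0 genes in every condition contrast, as without it, so pairing changed no call there. Without the animal block the gate called 19 genes and the class comparison 4763, against 51 and 6607 with it.

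DESeq2 called more genes: over all gates 6 for Fear-Recall against Context-Only, 2 against Fear-Only and 87 against Homecage, 92 for Fear-Only against Homecage, 9 for Fear-Only against Context-Only and 73 for Context-Only against Homecage. In pos cells it called 24 for Fear-Recall against Context-Only, 7 against Fear-Only and 18 for Fear-Only against Context-Only, with 28 in excitatory and 37 in inhibitory neurons. In neg cells it called 14, 15 and 28 for Fear-Recall against Context-Only, Fear-Only and Homecage, and without a gate label 1.2e+02 (rounded) and 51 against Context-Only and Fear-Only. It called 647 for the gate and 1 for the gate difference between conditions. The gate called 90 with equal weight of cells, 1 without the Fear-Recall animals, 19 without the clusters of few genes and 1 to 32 when leaving out each animal (1 without Fear-Recall animal 2). Leaving out each animal gave 0 to 2 genes in pos cells for Fear-Recall against Fear-Only and for Fear-Only against Context-Only, and 6126 to 6558 for the class.

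At equal depth the share differences between inhibitory and excitatory neurons were -3.60 points for Ggcx, -1.64 for Acvr1 and -1.68 for Haus6, no longer past the threshold. Signs of values near 0 turned, none of them past the threshold. For the class, Ggcx was -0.18 without the Fear-Recall animals and -0.031 without the clusters of few genes, and Haus6 0.26 with no replicate block. For the gate, Acvr1 was -0.017 without Homecage replicate 2, -0.065 without the Fear-Recall animals and -0.11 without the clusters of few genes, Haus6 -0.0029 without the Fear-Recall animals, and Ints8 -0.12 with equal weight and -0.093 without the clusters of few genes. Pcna-ps2 was 0.24 with no replicate block and 0.036, 0.047 and 0.045 without Context-Only, Fear-Only and Homecage replicate 2. The causes were not tested. Few animals per gate and few high cells per gene limit these values.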
